A study of Mus musculus with 15 samples.

Results

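The genes described here are the embryonic and alpha globins and a small set of red cell genes: Hba-x, Hba-a1, Hbb-bh1, Hbb-y, Klf1, Nfe2, Alas2 and Epor. They were taken by name: every non-control probe that the scanner files give the symbol of 1 of these 8 genes was used, which gave 9 of the 39429 probes on the array, with 2 for Hbb-y and 1 for each of the others. The samples were total RNA of mouse embryonic stem (ES) cells and of embryoid bodies, the aggregates in which ES cells differentiate, in a study of the Polycomb protein Cbx7. RNA (500 ng per sample) was labelled with Cy3 and hybridised to 15 Agilent 1-colour arrays, on which a signal is a fluorescence and not a count. All 9 probes passed the filter on dim probes, which asked for a signal well above background on at least 3 arrays of a group.

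The 4 groups were control ES cells (replicates 2, 3 and 4), ES cells with Cbx7 depleted by the hairpin named KD33 (replicates 1 to 4), control embryoid bodies named EB9 (replicates 1 to 4) and EB9 with Cbx7 depleted by KD33 (replicates 1 to 4). The series' design text names the ES control ES-shCtr, and the sample labels give the treatment of both control groups as none. The labels do not say what the 9 of EB9 counts, name no ES cell line or strain, and call the replicates biological. Both knockdown groups rest on 1 hairpin, so an effect of Cbx7 and an effect of that hairpin cannot be told apart.

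The first red cells of the mouse embryo form in the yolk sac and carry embryonic haemoglobins. In these, alpha-like chains from Hba-x (zeta globin) and the adult-type alpha genes pair with the beta-like chains Hbb-bh1 (beta H1) and Hbb-y (epsilon y). Klf1 and Nfe2 encode transcription factors of the red cell lineage, Alas2 the red cell form of the first enzyme of haem synthesis, and Epor the receptor for erythropoietin. Both globin clusters and most of the other genes are textbook targets of the GATA and Klf1 factors, which read GATA and CACC sequence motifs.

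The probes of 3 globin genes are printed because their letters decide which chain is read. The Hba-x probe (A_51_P204053) lies at chr11:32177668-32177727 and the Hba-a1 probe (A_55_P1962303) at chr11:32183955-32184014, both on the plus strand of mm9, the build of the file headers. The Hbb-y probe A_55_P1967481 lies at chr7:111000448-111000507 on the minus strand.
Hba-x probe: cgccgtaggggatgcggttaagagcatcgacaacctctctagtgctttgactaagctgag
Hba-a1 probe: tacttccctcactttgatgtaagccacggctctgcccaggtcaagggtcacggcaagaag
Hbb-y probe A_55_P1967481: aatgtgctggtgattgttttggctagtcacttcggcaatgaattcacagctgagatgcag
The file lists the Hba-a1 probe under the transcripts of both Hba-a1 and Hba-a2, so its signal cannot be assigned to 1 of these near-identical genes. The other Hbb-y probe (A_55_P1967478) lies at chr7:111000268-111000327 and the Hbb-bh1 probe (A_55_P2005828) at chr7:110990209-110990268, both on the minus strand. The remaining probes lie at chr8:87428881-87428940, plus strand (Klf1, A_51_P168630), chr15:103078838-103078897, minus strand (Nfe2, A_51_P515965), chrX:147004993-147005052, plus strand (Alas2, A_51_P327451), and chr9:21763422-21763481, minus strand (Epor, A_51_P435339). No mm9 gene annotation was used here, so exon positions are not given.

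The promoters of the genes were searched for short motifs, and the part of these motifs in the signals was not tested. RefSeq promoters of GRCm38.p6 were matched for 6 of the 8 genes; Hbb-bh1 and Nfe2 had no entry. The 250 bases before the annotated start were searched on both strands for 4 motifs: GATA as the letters AGATAA or TGATAA, the CACC box as the letters CCACCC, the CCAAT box as those letters, and NF-E2 as the letters TGANTCA. These were chosen with these sequences in view. The last 190 bases before the start of the 3 matched globin genes follow, with the GATA and CACC letters in capitals; TTATCA and TTATCT are the GATA letters read on the other strand.
Hba-x, chr11:32276410-32276599, plus strand: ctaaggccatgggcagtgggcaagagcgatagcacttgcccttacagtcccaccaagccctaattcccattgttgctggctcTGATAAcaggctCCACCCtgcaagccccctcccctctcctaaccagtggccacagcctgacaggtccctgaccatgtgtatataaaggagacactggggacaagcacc
Hba-a1, chr11:32283482-32283671, plus strand: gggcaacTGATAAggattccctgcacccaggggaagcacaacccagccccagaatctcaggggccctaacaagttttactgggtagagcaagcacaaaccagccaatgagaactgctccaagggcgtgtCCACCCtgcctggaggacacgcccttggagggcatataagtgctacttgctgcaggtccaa
Hbb-y, chr7:103853208-103853397, minus strand: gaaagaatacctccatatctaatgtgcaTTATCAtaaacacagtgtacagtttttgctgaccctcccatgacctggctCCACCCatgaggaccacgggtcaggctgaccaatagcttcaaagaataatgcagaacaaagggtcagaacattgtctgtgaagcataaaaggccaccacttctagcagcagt
For the other 3 genes, 36 bases around the GATA match are shown.
Klf1, chr8:84901887-84901922, plus strand: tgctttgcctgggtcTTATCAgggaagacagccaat
Alas2, chrX:150547316-150547351, plus strand: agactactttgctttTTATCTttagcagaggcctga
Epor, chr9:21963610-21963645, minus strand: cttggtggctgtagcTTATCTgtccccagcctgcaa

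GATA letters stood in 6 of the 6 promoters, against 16.6% of the 32851 RefSeq promoters searched the same way. CACC letters stood in 5 of the 6 (28.1% of all), missing from this window of Klf1 only, and CCAAT letters in 3 of the 6 (33.8% of all), those of Hba-a1, Hbb-y and Klf1. NF-E2 letters stood in 0 of the 6 and in 6.75% of all. The GATA letters began 108 bases before the start of Hba-x and 183 before that of Hba-a1 on the gene's strand. On the other strand they began 162 bases before the start of Hbb-y, 80 before that of Klf1, 86 before that of Alas2 and 54 before that of Epor. The 3 CACC matches of Alas2, all on the other strand, overlap each other by 1 base in turn. A match is a string of letters and not a measured site of binding.

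**Figure D1:**
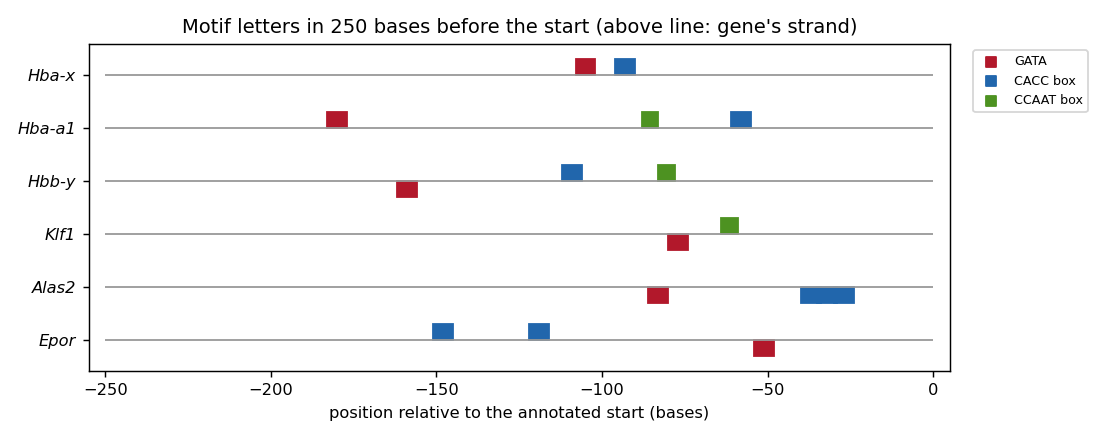
Map of the motif letters in the 250 bases before the annotated start of the 6 genes with a RefSeq promoter; the x axis gives the position relative to the start in bases, and boxes above a line lie on the gene's strand and boxes below it on the other. GATA letters lie in all 6 windows, between 183 and 49 bases before the start.

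Signals are given as log2 relative to the 75th percentile of the same array, so that 0 is a signal equal to that percentile and 1 unit is a doubling. Differences are on the same log2 scale, with the standard error (SE) of a limma fit over all 15 arrays and Benjamini-Hochberg adjusted p-values over the 27248 probes kept. Levels of different probes are not set against each other, because probes differ in brightness. The 75th percentile itself ran from 1483.2 to 2531.1 fluorescence units over the arrays, between 62.5% and 75.4% of features were well above background, and none was saturated. The arrays lay on 4 slides, each group at 1 fixed position on its slide, which therefore cannot be told apart from the group. Of the 2 Cbx7 probes, 1 had a knockdown minus control difference of −1.91 (SE 1.23, adjusted p = 0.256) in ES cells and −0.27 (SE 1.14, adjusted p = 0.92) in EB9, and the other −0.13 (adjusted p = 0.733) and −0.16 (adjusted p = 0.708), so the array gives no passing check of the depletion. ES cell identity genes were high in ES cells as labelled: 10 of 10 genes of that list (Pou5f1, which encodes Oct4, and Nanog among them) fell from control ES cells to control EB9, with a median difference of −4.64.

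Differentiation from ES cells to EB9 raised all 9 probes, with and without the hairpin. In the controls the rise ran from 4.28-fold for Epor to 4310-fold for Hbb-bh1 among the genes whose signal was above background at both stages. Hba-x, Alas2 and 1 Hbb-y probe were not well above background on any ES array and strong on every EB9 array. These probes passed the filter on dim probes only through the EB9 groups. Their calls as higher in EB9 were therefore close to fixed in advance. Of all probes tested, 33.8% were called higher in control EB9 than in control ES cells and 34.2% in the knockdown pair. The passing of 9 of 9 probes in each is read with that background and with that filter. The ES and EB9 arrays did not overlap on any of the 9 probes, as on 73% of all probes in the controls and 74.4% in the knockdowns. In bulk RNA, more red cells and more globin RNA per red cell cannot be told apart.

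Hba-x encodes zeta globin, the embryonic alpha-like chain. Its signals were −8.72, −8.52 and −8.63 on ES control arrays 2 to 4 and −8.38, −8.20, −8.63 and −8.26 on ES knockdown arrays 1 to 4. On EB9 arrays 1 to 4 they were 4.87, 3.19, 3.55 and 3.76 in controls and 4.96, 3.04, 4.41 and 4.66 in knockdowns. The ES arrays all sat at the bottom of the scale, with no array above background, and no ES value came near an EB9 value. The control EB9 signal was at least 1660-fold higher than in control ES cells (log2 difference 12.47, SE 0.42, adjusted p = 9.5e-12), where the bound uses the lowest signal the software called above background on each ES array. That level is not a strict detection limit: on ES knockdown 1 it was −6.58, yet Klf1 at −6.25 was not called. Each fold given here as at least is therefore nominal. In the knockdown pair the signal was at least 1900-fold higher (12.64, SE 0.39, adjusted p = 3.37e-12).

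The alpha probe of Hba-a1 and Hba-a2 started from a measurable level. It gave −3.43, −3.48 and −3.39 in the ES controls and −3.37, −3.59, −3.57 and −3.54 in the ES knockdowns. In EB9 it gave 5.52, 4.03, 4.17 and 4.31 in controls and 5.68, 4.04, 5.34 and 5.46 in knockdowns. All 15 arrays were above background, the ES arrays lay within a narrow band, and the EB9 arrays spread over 3.12-fold in knockdowns and 2.79-fold in controls. The rise was 245-fold in controls (7.94, SE 0.38, adjusted p = 2.93e-10) and 400-fold in knockdowns (8.64, SE 0.35, adjusted p = 4.72e-11).

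Hbb-bh1 encodes the embryonic beta-like chain made first in yolk sac red cells. Its probe gave −5.43, −4.73 and −4.88 in the ES controls and −5.15, −5.73, −4.49 and −5.35 in the ES knockdowns. In EB9 it gave 7.64, 6.76, 6.90 and 6.94 in controls and 7.40, 6.61, 7.36 and 7.50 in knockdowns. The EB9 arrays were tightly grouped, within 1.85-fold in either group, and far above every ES array. The rise was 4310-fold in controls (12.07, SE 0.31, adjusted p = 6.42e-13) and 5400-fold in knockdowns (12.40, SE 0.29, adjusted p = 2.16e-13). Among the 22422 probes above background on every control array, this was the highest difference from ES cells to EB9, and it was the highest of 22373 in the knockdown pair as well.

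Hbb-y encodes the embryonic epsilon y chain and was read by 2 probes that differed in ES cells. Probe A_55_P1967481 was not above background on any ES array (−7.69, −8.58 and −8.78 in controls; −8.41, −8.26, −8.74 and −8.34 in knockdowns). Probe A_55_P1967478 was above background in 3 of 3 ES controls (−6.60, −6.11 and −5.56) and in 2 of 4 ES knockdowns, replicates 2 and 3 (−6.55, −6.11, −6.34 and −7.23 over the 4). In EB9 both probes were high on all arrays. The first gave 3.79, 2.07, 2.59 and 2.71 in controls and 4.56, 2.18, 3.94 and 3.97 in knockdowns. The second gave 4.57, 3.05, 3.55 and 3.56 in controls and 5.36, 3.04, 4.82 and 4.85 in knockdowns. Both probes thus ordered the EB9 arrays alike, with replicate 2 lowest and replicate 1 highest in each group. The second probe rose 875-fold in controls (9.77, SE 0.51, adjusted p = 6.96e-10). Its log2 difference in the knockdown pair was 11.08 (SE 0.47, adjusted p = 7.35e-11), with no exact fold because only 2 of 4 ES knockdown arrays were above background. The first probe rose at least 801-fold in controls (11.14, SE 0.51) and at least 1250-fold in knockdowns (12.10, SE 0.47). The second probe's difference ranked 3 of 22422 in controls and that of the Hba-a1 probe 11; in the knockdown pair, the Hba-a1 probe ranked 3 of 22373 and neither Hbb-y probe could be ranked, as not all ES arrays were above background.

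Klf1 encodes the factor that drives most late red cell genes. It gave −5.49, −5.83 and −5.51 in the ES controls, all above background, and −6.25, −6.44, −5.52 and −6.77 in the ES knockdowns, of which only replicate 3 was above background. In EB9 it gave −0.16, −1.08, −0.89 and −0.88 in controls and −0.18, −1.81, −0.75 and −0.72 in knockdowns. Every EB9 array lay above every ES array, and EB9 knockdown 2 was the lowest of the EB9 arrays. The rise was 29.0-fold in controls (4.86, SE 0.36, adjusted p = 3.11e-08). In the knockdown pair the log2 difference was 5.38 (SE 0.33, adjusted p = 4.02e-09), which has no exact fold because only 1 of 4 ES knockdown arrays was above background.

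Nfe2 encodes the larger subunit of NF-E2, a factor of red cells and megakaryocytes. It was above background on all arrays, with −3.49, −3.64 and −3.45 in the ES controls and −4.14, −4.31, −4.05 and −4.09 in the ES knockdowns. In EB9 it gave 0.38, −0.90, −0.75 and −0.69 in controls and 0.20, −1.36, −0.27 and −0.21 in knockdowns. The stages did not overlap. The rise was 8.21-fold in controls (3.04, SE 0.34, adjusted p = 1.96e-06) and 13.3-fold in knockdowns (3.73, SE 0.31, adjusted p = 9.18e-08).

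Alas2, the haem enzyme of red cells, was not above background on any ES array (−8.92, −8.80 and −9.01 in controls; −8.62, −8.52, −8.79 and −8.51 in knockdowns). In EB9 it gave 2.27, 0.58, 0.83 and 1.01 in controls and 2.68, 0.35, 2.18 and 2.34 in knockdowns. All 8 EB9 arrays were above background, and knockdown 2 was the lowest of them. The rise was at least 261-fold in controls (10.08, SE 0.48, adjusted p = 3.08e-10) and at least 364-fold in knockdowns (10.50, SE 0.45, adjusted p = 7.81e-11).

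Epor, the erythropoietin receptor, had the smallest rise of the 8 genes. It gave −0.85, −0.97 and −0.98 in the ES controls and −1.06, −1.16, −1.18 and −1.13 in the ES knockdowns. In EB9 it gave 1.59, 0.86, 1.05 and 1.15 in controls and 1.67, 0.83, 1.40 and 1.5 in knockdowns. The ES arrays already carried a clear Epor signal, and no ES array reached an EB9 array. The rise was 4.28-fold in controls (2.10, SE 0.18, adjusted p = 1.69e-07) and 5.59-fold in knockdowns (2.48, SE 0.17, adjusted p = 1.09e-08). Among probes above background on every control array, the differences of Klf1, Nfe2 and Epor ranked 162, 596 and 1305 of 22422.

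**Figure D2:**
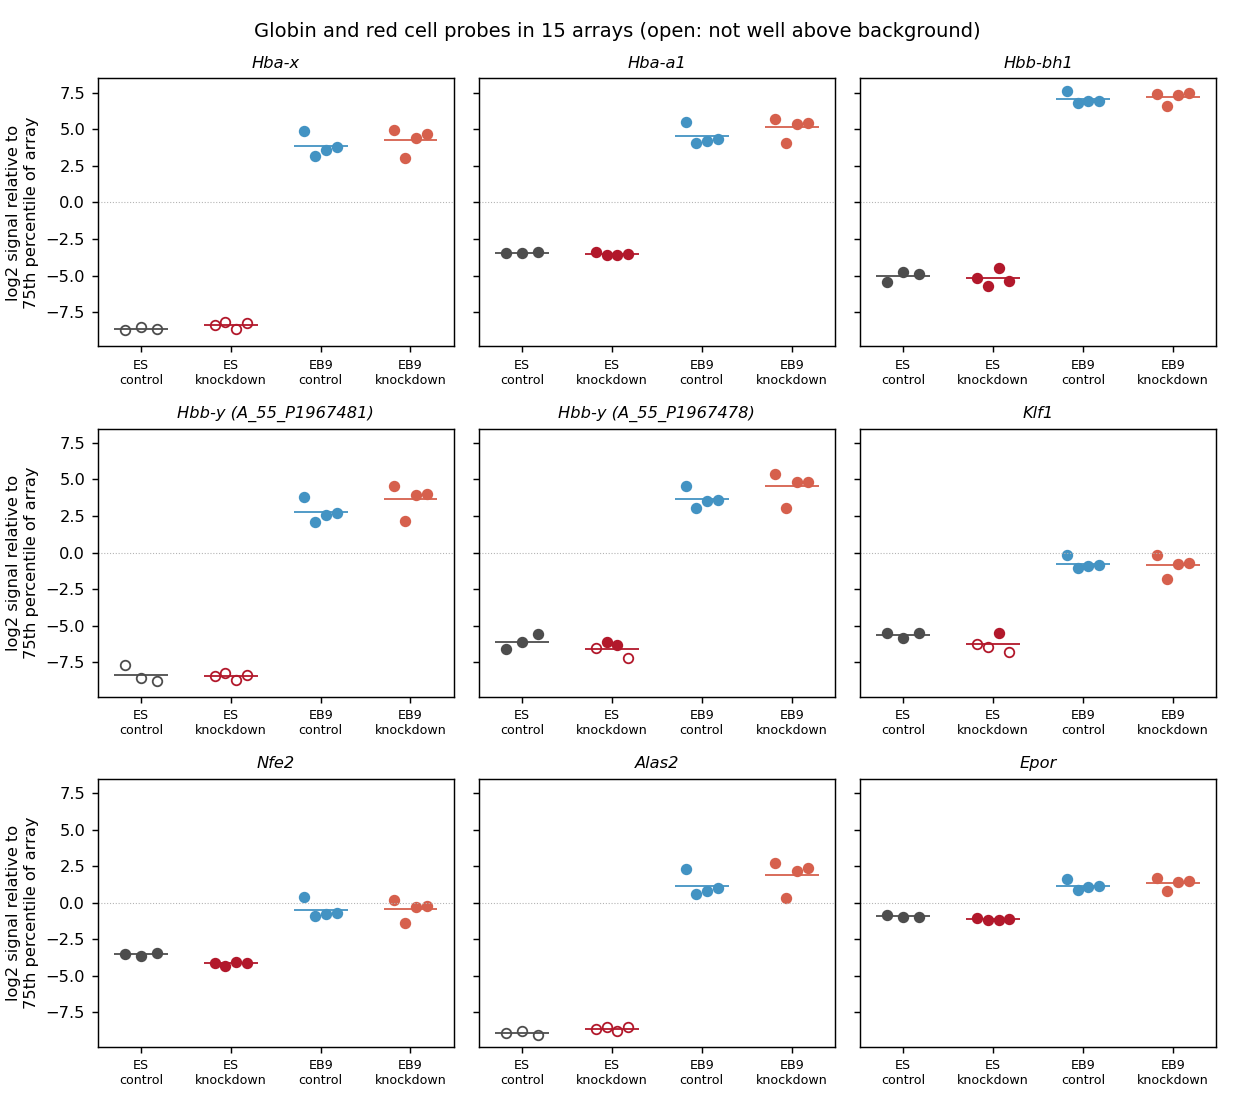
Signal of the 9 probes on 15 arrays, 1 panel per probe; the y axis is log2 signal relative to the array's 75th percentile, each point is 1 array (replicates from left to right), lines are group means, and open points are not well above background. Every EB9 array lies above every ES array on each probe, and Hba-x, Alas2 and probe A_55_P1967481 of Hbb-y are open on all 7 ES arrays.

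The wider red cell programme was followed in lists of genes, each read by its brightest probe and set beside all 21184 genes, of which 33.2% were higher and 41.5% lower in control EB9 than in control ES cells (median difference −0.14). Of 6 further globin chain and globin-partner genes measured of 10 listed, 5 rose, 1 fell and the median was 5.33. Hbb-b2, an adult beta chain, rose at least 79.3-fold (8.53, SE 0.33, adjusted p = 3.72e-11), Hbb-bt, another adult beta chain, at least 34.3-fold (6.53, SE 0.43, adjusted p = 8.61e-09) and Hba-a2 194-fold (7.60, SE 0.36, adjusted p = 2.51e-10). Ahsp, the chaperone of free alpha chains, rose at least 14.3-fold (4.13, SE 0.38). Hbb-b2, Hbb-bt and Ahsp also passed the filter on dim probes only through EB9. The adult alpha genes are near-copies of each other, as are the adult beta genes, and cross-hybridisation between globin probes was not tested. Hbq1a, a theta-like globin, was the gene that fell (−1.49, SE 0.31, adjusted p = 0.000749).

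Of 16 red cell transcription factor genes, 11 rose and 4 fell (median 1.51). Tal1, a master factor of blood formation, rose 36.8-fold (5.20, SE 0.15, adjusted p = 1.79e-12), and its partner Lmo2 12.9-fold (3.69, SE 0.14, adjusted p = 2.14e-11). Klf2, a relative of Klf1 that is also an ES cell factor, fell (−2.86, SE 0.10, adjusted p = 1.13e-11). Gata1, the main GATA factor of red cells, rose by less (1.31, SE 0.31, adjusted p = 0.00167) from a signal that was above background on every ES array.

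Of 27 membrane and enzyme genes of red cells measured of 28 listed, 17 rose and 5 fell (median 1.37). Gypc, glycophorin C, rose 26.7-fold (4.74, SE 0.21, adjusted p = 1.16e-10), and Slc2a1, the glucose transporter Glut1, 3.63-fold (1.86, SE 0.10, adjusted p = 6.75e-10). Rhd, a Rh blood group gene, fell (−2.77, SE 0.08, adjusted p = 2.22e-12). Of 19 haem and iron genes 7 rose and 3 fell (median 0.23), a share of rises near that of all genes. Abcg2, a haem and drug exporter, rose 2.95-fold (1.56, SE 0.06, adjusted p = 6.62e-11), while Steap3, a ferric reductase, fell (−2.11, SE 0.11, adjusted p = 7.25e-10), as did the iron transporter Slc11a2 (−1.58, SE 0.09, adjusted p = 1.92e-09).

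Of 12 genes of erythropoietin signalling measured of 13 listed, 4 rose and 4 fell (median −0.01). Cish, a feedback inhibitor induced by Stat5, rose 3.94-fold (1.98, SE 0.06, adjusted p = 4.13e-12) and Stat5b 2.58-fold (1.37, SE 0.07, adjusted p = 3.09e-10). Socs3, another feedback inhibitor, fell (−3.54, SE 0.07, adjusted p = 8.48e-14). In the knockdown pair, against 33.7% of all genes higher and 44.1% lower, 5 of the 6 globin chain genes rose and 1 fell (median 6.08), and 10 of the 16 factors rose and 3 fell (median 1.23). Of the 27 membrane and enzyme genes 18 rose and 6 fell (median 1.80), of the 19 haem and iron genes 8 rose and 6 fell (median −0.02), and of the 12 signalling genes 6 rose and 4 fell (median 0.37).

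**Figure D3:**
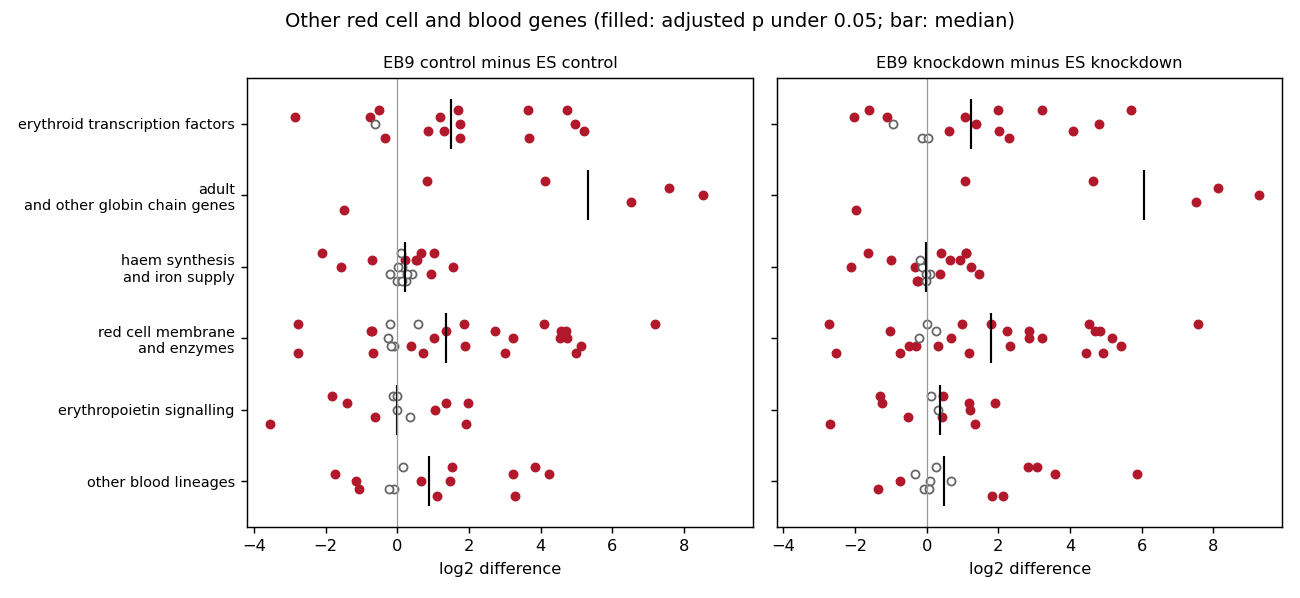
Log2 difference from ES cells to EB9 for the genes of 6 lists, in controls (left) and knockdowns (right); each point is 1 gene, filled points have an adjusted p under 0.05, vertical offsets only separate points, and black bars are list medians. The globin chain list has the highest median of the 6 in both panels, 5.33 and 6.08.

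Markers of other cell types rose along with the red cell genes. Of 12 endothelial genes 11 rose and 0 fell (median 3.78), and of 12 visceral endoderm genes 11 rose and 1 fell (median 4.04). Afp, the alpha-fetoprotein of visceral endoderm, rose at least 434-fold (9.40, SE 0.15), and Cdh5, the VE-cadherin of endothelium, at least 263-fold (9, SE 0.74). Both passed the filter on dim probes only through EB9. Of 14 genes of other blood lineages measured of 19 listed, 8 rose and 3 fell (median 0.89). Mpo, a myeloid gene, rose 14.3-fold (3.84, SE 0.20, adjusted p = 8.07e-10), while Cd68 fell (−1.16, SE 0.11, adjusted p = 4.11e-07). Ptprc, the CD45 of white blood cells, was above background on 1 of 4 control EB9 arrays and 3 of 4 knockdown ones. Csf1r, the receptor of macrophages, did not pass (−0.10, SE 0.33, adjusted p = 0.791). Pf4, a platelet gene, rose 9.45-fold (3.24, SE 0.75, adjusted p = 0.00151). The part of these cell types in the members' values was not tested.

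Within EB9, the 9 probes ordered the arrays almost identically. Control 1 was the highest of the 4 controls on 9 of 9 probes, control 4 the next highest on 9, and control 2 the lowest on 9. Knockdown 1 was the highest knockdown on 8 of 9 probes, with knockdown 4 higher on Hbb-bh1, and knockdown 2 was the lowest on 9. Over all 8 arrays, control 1 and knockdowns 1, 3 and 4 made up the top 4 on each of the 9 probes, and control 2 and knockdown 2 the bottom 2. The size of this spread differed between genes: within knockdowns it was 5.20-fold and 4.97-fold for the Hbb-y probes, 5-fold for Alas2, 3.79-fold for Hba-x and 3.1-fold for Klf1, but 1.85-fold for Hbb-bh1 and 1.79-fold for Epor. Within the controls the same probes spread over 3.30, 2.85, 3.21, 3.20, 1.89, 1.84 and 1.66-fold. Within an ES group the spread was at most 1.10-fold for Epor, but it reached 2.35-fold for Hbb-bh1 and 2.38-fold for Klf1 in the ES knockdowns.

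**Figure D4:**
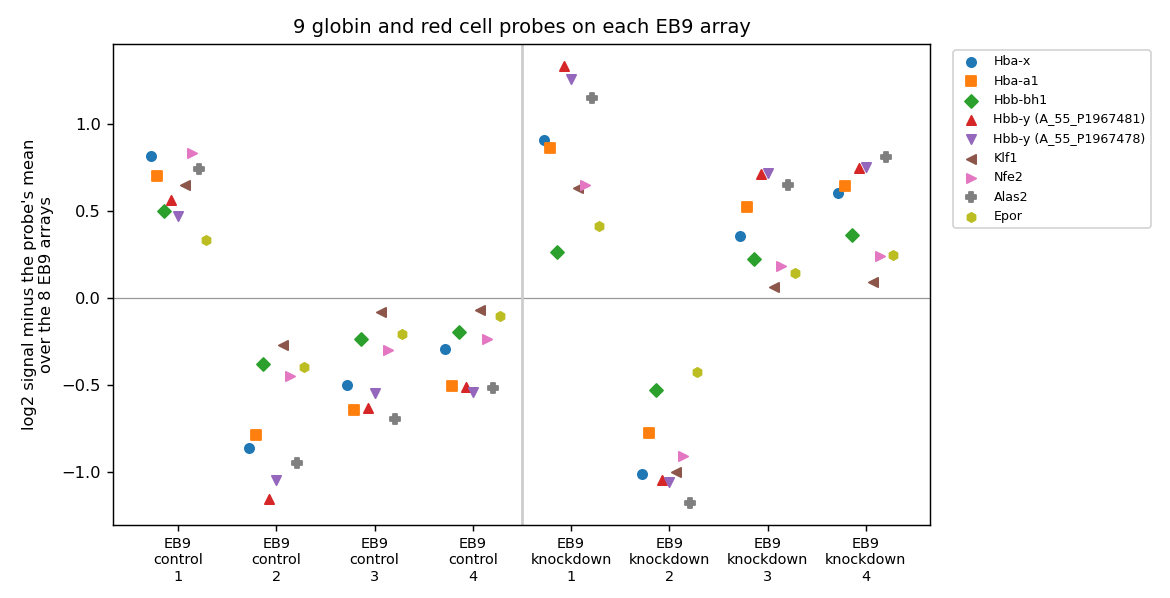
Deviation of each of the 9 probes from its own mean over the 8 EB9 arrays; the y axis is in log2 units, each column is 1 array and each marker 1 probe, shifted sideways for legibility. All probes are above their mean on control 1 and knockdowns 1, 3 and 4 and below it on controls 2, 3 and 4 and knockdown 2.

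The globin pattern over the EB9 arrays was summarised as the mean of Hba-x, Hba-a1, Hbb-bh1 and Hbb-y (brightest probe each), which was 5.70, 4.31, 4.59 and 4.69 in controls 1 to 4 and 5.90, 4.23, 5.53 and 5.67 in knockdowns 1 to 4. Controls 1 to 4 thus all lay within the range of the knockdowns, and knockdown 2 was the lowest of the 8 arrays. The members outside this mean had Pearson correlations with it of 0.998 (Alas2), 0.988 (Epor), 0.936 (Nfe2) and 0.843 (Klf1) over the 8 arrays. These values describe 8 arrays that share 2 groups and 4 slides. As deviations from the group means, Nfe2 had 0.991 and Klf1 0.974.

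Among the 5 genes most like the globin pattern over the 8 EB9 arrays, of 18261 ranked, were Rhag (0.996), Ahsp (0.994), Abcb9 (0.994) and Acp5 (0.993). Rhag encodes the Rh-associated glycoprotein of the red cell membrane, and Acp5 encodes an acid phosphatase known from osteoclasts. Without knockdown 2 and control 2, the arrays farthest from the median, these correlations were 0.992, 0.994, 0.991 and 0.997 over 6 arrays. In all, 152 genes had a correlation above 0.95. Rhag gave −2.71, −4.18, −3.98 and −3.80 in controls 1 to 4 and −2.56, −4.35, −2.75 and −2.67 in knockdowns 1 to 4. It thus repeated the high control 1 and the low knockdown 2 of the globins. Over all 15 arrays the 5 closest of 21097 genes were Hba-a2, Col6a1, Gbp4, Gata6 and Csf1, all at 0.999, but 3123 genes had a correlation above 0.95 there, where the arrays form separate ES and EB9 clusters, so these values say little beyond a gap between the stages. Hba-a2 is also among the transcripts listed for the Hba-a1 probe of the pattern.

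Correlations with the globin pattern over the 8 EB9 arrays were also taken for the genes of the lists, beside a median of −0.131 over 21165 genes. The 16 factors had a median of 0.698 and ran from −0.865 for E2f4, a cell cycle factor, to 0.968 for Gata1, with Lmo2 at 0.272 and Gata2 at −0.657. The median was 0.747 for the 27 membrane and enzyme genes, 0.72 for the 19 haem and iron genes, 0.934 for the 6 globin chain genes and 0.243 for the 12 genes of erythropoietin signalling. The globin chain genes include Hba-a2 (0.992), whose transcript is also listed for the Hba-a1 probe of the pattern, so its likeness is partly built in. It was 0.004 for the 14 genes of other blood lineages, −0.25 for endothelium and −0.631 for visceral endoderm. Among single genes, Slc4a1, the band 3 anion exchanger of the red cell membrane, had 0.932, while Aqp1, a water channel of red cells and vessels, had −0.902. Pf4 had 0.971. The endothelial genes went both ways, with 5 of 12 positive, and ran from −0.789 for Sox17 to 0.862 for Pecam1, with Cdh5 at −0.401. The summed signal of the visceral endoderm list, in units of the 75th percentile, was 19.8 on knockdown 1 and 48.1 on knockdown 2, against 33.7 and 33.4 on knockdowns 3 and 4 and 31.9 to 40.2 in controls. That of the endothelial list stayed between 56.8 and 65.0. The ES cell list summed to 23.3 on control 1 and 24.5 on knockdown 1, below the 27.1 to 31.5 of the other 6 arrays. Each sum is dominated by the few brightest probes of its list. As a median over the genes of a list, the deviation from the group mean was −0.71 for visceral endoderm on knockdown 1 and 0.80 on knockdown 2. For endothelium it stayed between −0.09 and 0.08, and for the ES cell list it was −0.24 on control 1 and −0.17 on knockdown 1. The 75th percentile of the array itself was 1735.9 units on control 1 and 2531.1 on control 2, and 1953.7 and 2212 on knockdowns 1 and 2. The part of these differences in the members' spread was not tested.

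The question of whether Cbx7 depletion changed the red cell genes in EB9 was asked with EB9 knockdown minus EB9 control. None of the 9 probes was called, against 14.1% of all probes, and none had an unadjusted p under 0.05 (lowest 0.0859). The measured differences were 0.87 (SE 0.47, 95% interval −0.14 to 1.89, adjusted p = 0.253) and 0.84 (SE 0.47, −0.18 to 1.85, adjusted p = 0.276) for the Hbb-y probes and 0.72 (SE 0.45, −0.25 to 1.69, adjusted p = 0.333) for Alas2. They were 0.62 (SE 0.35, −0.14 to 1.38, adjusted p = 0.28) for Hba-a1 and 0.43 (SE 0.39, −0.42 to 1.28, adjusted p = 0.537) for Hba-x. The intervals of these 5 probes all include 0 and reach beyond a doubling. They use a spread shared with the ES arrays, where these probes varied less between replicates. For Alas2 the standard deviation was 0.11 and 0.13 in ES controls and knockdowns, and 0.75 and 1.04 in those of EB9. The SE and intervals therefore understate the EB9 spread. For Epor the difference was 0.19 (−0.18 to 0.56), for Hbb-bh1 0.16 (−0.46 to 0.78), for Nfe2 0.08 (−0.60 to 0.75) and for Klf1 −0.11 (−0.84 to 0.61).

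These differences varied with the slide and with single arrays. Within slides, all 9 probes were higher in the knockdown on slides 3 and 4 (0.15 to 1.35 and 0.16 to 1.34), 6 of 9 were higher on slide 1 (−0.25 to 0.79) and 1 of 9 on slide 2 (−0.73 to 0.11). Hba-a1, for example, differed by 0.16, 0, 1.17 and 1.14 on slides 1 to 4. Slide 1 holds the high control 1, and slide 2 the low control 2 and knockdown 2. Without EB9 knockdown 2, 4 probes were called: Hba-a1 (0.98, adjusted p = 0.0266), both Hbb-y probes (1.37, adjusted p = 0.0211, and 1.33, adjusted p = 0.0245) and Alas2 (1.23, adjusted p = 0.0161); in that fit 20% of all probes were called. Without EB9 control 1 only Hba-a1 was called (0.96, adjusted p = 0.0488), against 15.6% of all probes, and with the slide as a block none was, against 25.5%. With array weights, which give less weight to arrays far from their group, 5 were called, against 29.4% of all probes: Hba-x (0.78, adjusted p = 0.0447), Hba-a1, both Hbb-y probes and Alas2.

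The red cell lists gave few calls in this comparison, in which 7.74% of all genes were higher and 6.98% lower. Of the 6 globin chain genes 1 rose and 0 fell (median 0.54): Hbb-b2, which rose 2.07-fold (1.05, SE 0.31, adjusted p = 0.0394). Its standard deviation was 0.11 and 0.24 in ES controls and knockdowns, and 0.57 and 0.64 in those of EB9. This SE therefore also understates the EB9 spread. Of the 16 factors 1 rose and 2 fell (median −0.04). Klf2 rose (0.71, SE 0.09, adjusted p = 0.000481), and Gata2, the early GATA factor of blood progenitors (−0.48, SE 0.07, adjusted p = 0.00144), and Lmo2 (−0.46, SE 0.13, adjusted p = 0.0287) fell. Of the 27 membrane and enzyme genes 0 were called (median 0.08), and of the 19 haem and iron genes 2 rose: Tfrc, the transferrin receptor (0.52, SE 0.09, adjusted p = 0.00245), and Hmox1, haem oxygenase (0.43, SE 0.07, adjusted p = 0.00229). Without EB9 knockdown 2, added after seeing the data, 3 globin chain genes, 6 membrane and enzyme genes, 4 haem and iron genes and 2 factors rose, and 1 factor and no gene of the other 3 lists fell. In that fit 10.9% of all genes were higher and 9.48% lower. In the same comparison 4 of 12 visceral endoderm genes fell and 0 rose (median −0.65), and 3 of 12 endothelial genes fell and 0 rose (median −0.21). Of the other blood genes 1 rose (Cd68, 0.43) and 2 fell (Mpo, −1.36, and Vwf, −0.83). The part of these genes in the members' values was not tested.

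In ES cells the hairpin comparison concerned signals that were mostly near background. None of the 9 probes was called in ES knockdown minus ES control, against 38.1% of all probes; 0 of 9 had an unadjusted p under 0.05 (lowest 0.0901). The groups did not overlap on 3 of 9 probes, against 49.2% of all probes: Nfe2 and Epor, both above background on every ES array and lower in the knockdowns, and Alas2, higher in them but below background on every ES array. Nfe2 differed by −0.62 (SE 0.34, adjusted p = 0.175), with −0.65, −0.67 and −0.59 on slides 1 to 3, and Epor by −0.20 (SE 0.18, adjusted p = 0.447), with −0.21, −0.19 and −0.19. These within-slide differences were even, while the SE comes from a spread shared with the EB9 arrays. Fitted on the 7 ES arrays alone, Nfe2 (SE 0.08, adjusted p = 0.00125) and Epor (SE 0.06, adjusted p = 0.0285) were called, as was Alas2 (0.30, adjusted p = 0.0315), against 43.7% of all probes. With array weights, 4 probes were called lower, against 64.3% of all probes called in either direction: Hbb-bh1, Hbb-y (A_55_P1967478), Klf1 and Nfe2. Klf1 had a difference of −0.64 (SE 0.36, adjusted p = 0.193), Hbb-y −0.09 and −0.47, Hbb-bh1 −0.17, Hba-a1 −0.09 and Hba-x 0.26.

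**Figure D5:**
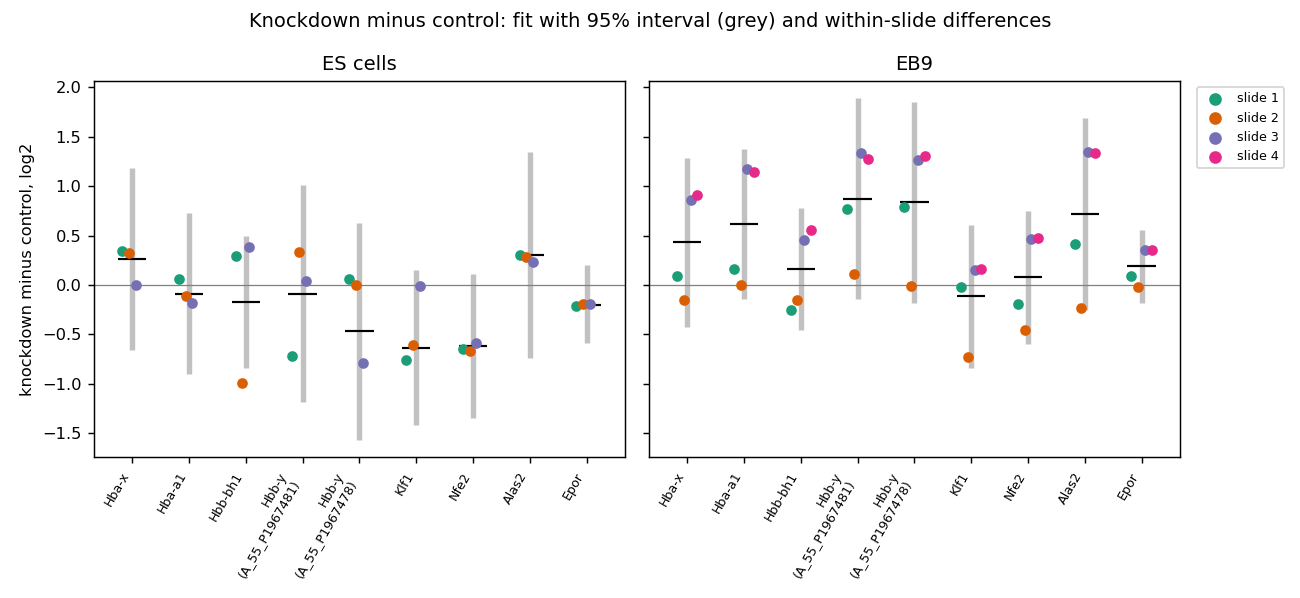
Knockdown minus control in ES cells (left) and EB9 (right) for the 9 probes; the y axis is the log2 difference, black bars are the fitted differences, grey bars their 95% intervals, and coloured points the differences within each slide. All grey bars cross 0, and in EB9 the points of slides 3 and 4 lie above those of slides 1 and 2 on every probe.

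In ES cells, genes of the red cell factor list were among those that did pass: of the 16 factors 8 rose and 2 fell (median 0.24), against 21.9% and 16.4% of all genes. The 2 that fell were Zbtb7a (−0.44, adjusted p = 0.0233) and Zfpm1 (−0.40, adjusted p = 0.0368), and Gata1 did not pass (−0.54, adjusted p = 0.198). Gata2 rose 2.62-fold (1.39, SE 0.08, adjusted p = 9.46e-08), Klf3, a repressor of the Klf family, by 0.51 (SE 0.07, adjusted p = 5.48e-05) and Myb, a factor of blood progenitors, by 0.82 (SE 0.11, adjusted p = 0.000101). Of the 6 globin chain genes 0 passed (median 0.02), of the 27 membrane and enzyme genes 3 rose and 1 fell, of the 19 haem and iron genes 5 rose and 2 fell, and of the 12 signalling genes 0 rose and 4 fell. Tfrc rose 1.93-fold (0.95, SE 0.09, adjusted p = 7.71e-06). Markers of other cell types moved in the same comparison: of 12 visceral endoderm genes 0 rose and 5 fell (median −0.04), among them Apom (−1.88) and Hnf4a (−1.11). Another of these 5, Afp (−0.98), was not well above background on any ES array. Of 12 endothelial genes 2 rose and 3 fell, and of 14 genes of other blood lineages 0 rose and 3 fell. The part of these markers in the factors' values was not tested.

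The difference between the hairpin's effect in EB9 and in ES cells was tested as an interaction. None of the 9 probes was called, against 28.9% of all probes, and 0 of 9 had an unadjusted p under 0.05 (lowest 0.0818). The values ran from 0.17 (SE 0.58, adjusted p = 0.876) for Hba-x to 1.30 (SE 0.69, adjusted p = 0.186) for the Hbb-y probe A_55_P1967478. Without EB9 knockdown 2, that Hbb-y probe (1.80, adjusted p = 0.0204), Nfe2 (1.01, adjusted p = 0.0485) and Epor (0.56, adjusted p = 0.0444) were called, against 31% of all probes. With array weights 5 probes were called (these 3, Hba-a1 and Hbb-bh1), against 46.4% of all probes. Of the 16 factors, 1 had a higher hairpin effect in EB9 than in ES cells and 5 a lower one (median −0.27), against 12.6% and 16.8% of all genes. The higher one was Klf2 (0.82, SE 0.13, adjusted p = 0.000667). The lower ones were Gata2 (−1.87, SE 0.11, adjusted p = 6.01e-07), Lmo2 (−1.39, SE 0.19, adjusted p = 0.000152), Myb (−1.11, SE 0.15, adjusted p = 0.000213), Tal1 (−1.10, adjusted p = 0.00136) and Klf3 (−0.36, adjusted p = 0.00828).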

How the data were processed

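The members and gene lists were chosen with earlier results of these data known. The deposited scanner output gives intensity per spot, made with Agilent Feature Extraction (version 10.7.3.1 per the file headers), whose processed signal is already corrected within the array for background and spatial trend but has no scaling between arrays. The authors' deposited table holds log2 values. How they made it is not stated in the labels or files; its scale and direction match scanner values after normexp (offset 50) and quantile normalisation within 0.000154, and each column's median is 7.53. It served as an alternative.

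Flagged spots were left out, spots of a probe averaged, and log2 processed signals taken relative to the 75th percentile of each array's 43020 non-control features. Probes well above background on at least 3 arrays of a group (27248) were fitted in limma 3.58.1 (R 4.3.3), with 1 mean per group over 15 arrays, 2-sided, called at an adjusted p under 0.05. Alternatives were other background correction, normalisation and filters, the authors' values, the gene level, slide or replicate number as a block, array weights, the compared groups alone and leaving out each array. Scripts were tested on simulated data. List genes named come from the up to 3 lowest p-values of a list in a comparison, the markers of cell types and the genes most like the globins. Hbq1a, Aqp1, E2f4, Hnf4a, Zbtb7a, Zfpm1 and, for the interaction, Klf2, Tal1 and Klf3 were chosen after their values were seen. A gene among those most like the globins is not reported here.

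Deviations from the group means correlated at a median of 0.41 between arrays of the same slide (21 pairs, 0.21 to 0.6). Between arrays of different slides the median was −0.29 (63 pairs, −0.56 to 0.45). The fit reported leaves the slide out, and the slide block is an alternative. Between arrays of the same replicate number the median was 0.32, but −0.31 for pairs with an ES control, whose numbers 2, 3 and 4 lay on slides 1, 2 and 3, so the numbers were not taken to pair the samples. Arrays carry no counts, so their number limits the precision.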

Additional observations from a re-analysis of the deposited data

Results flagged for a closer look

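In 27 groups of 4 arrays tested (9 probes in 3 groups), 2 had an array far from the others by Dixon's ratio of gap to range, where chance gives about 1 in 20. For Hbb-bh1, EB9 knockdown 2 (6.61) lay below the other 3 knockdowns (7.36 to 7.50), with a ratio of 0.848. For Nfe2, EB9 control 1 (0.38) lay above the other 3 controls (−0.90 to −0.69), with a ratio of 0.836. The same 2 arrays were the lowest knockdown and the highest control on all 9 probes.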

How the results depend on the processing

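All 466 alternative values of the members for EB9 against ES cells (233 in each pair) kept their direction and their call. The knockdown comparisons depended on the fit. In ES cells, 0 probes were called in the fit reported, 4 with array weights and 3 with the ES arrays alone. With the replicate block 1 was called, Nfe2 (−0.78, adjusted p = 0.0383); the numbers do not pair the ES controls with the other groups, and with the slide block 0 were called. In EB9, array weights gave 5 calls, and leaving out 1 array gave 0 to 4 (4 without EB9 knockdown 2, 1 without EB9 control 1). For the interaction, array weights gave 5 calls and leaving out 1 array 0 to 3. No paired value changed a call in EB9 or in the interaction. The interaction has no fit restricted to 1 pair of groups, and at the gene level Hbb-y is its brightest probe alone.

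Of all members' values, 19 turned sign, none of them called. In ES cells these were, with normexp, Hbb-bh1 (0.15), both Hbb-y probes (0.21 and 0.11) and Klf1 (0.02); with the authors' values, Hbb-bh1 (0) and Alas2 (−0.02); and with array weights, Hbb-y (A_55_P1967481, 0.17). In EB9, Klf1 was 0.07 with array weights, and the interaction of Klf1 was −0.12 with normexp. Leaving out 1 array gave −0.40 to 0.02 for Hbb-bh1 and −0.30 to 0.25 for Hbb-y (A_55_P1967481; 0.02 in another case) in ES cells, −0.13 to 0.39 for Nfe2 (−0.06 and −0.01 in others) and −0.34 to 0.20 for Klf1 (0.09 in another) in EB9, and −0.06 to 0.58 for the interaction of Hba-x (−0.05 in another). The cause was not tested.

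The background moved too: of 27248 probes, 3852 were called in EB9 knockdown minus control, against 8016 with array weights, 6939 with the slide block, 1263 with the EB9 arrays alone, and 2531, 2413, 2179 and 2096 without controls 3 and 4 and knockdowns 3 and 4. With array weights, 17529 against 10373 were called in ES cells and 12650 against 7870 in the interaction.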
